A study of Arabidopsis thaliana with 18 samples.

Results

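The expansin gene family of Arabidopsis thaliana was described in seedling libraries from darkness and blue light. Its members were taken by locus identifier from the deposited tables: 21 alpha-expansins (EXPA), 5 beta-expansins (EXPB), 3 expansin-like A genes (EXLA) and 1 expansin-like B gene (EXLB), in all 30 of the 32833 loci listed per library. Of these, 24 reached 1 TPM in at least 1 library and are described here. TPM is the length-scaled share of a gene among all transcripts of a library. EXPA2, EXPA22, EXPA24, EXPB2, EXPB4 and EXPB5 stayed under 1 TPM in all 18 libraries and were left aside.

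All libraries came from whole seedlings aged 4 days on MS medium, and the 5 groups differed in genotype and light. WT_dark 1-6 were 6 libraries of wild-type Col-0 kept in continuous darkness. Each of the remaining groups had 3 libraries: cry2-1, a mutant of the blue-light receptor cryptochrome 2, in darkness (cry2_dark), Col-0 and cry2-1 given 30 min of blue light at 30 µmol per m2 per s after growth in darkness (WT_blue and cry2_blue), and the dark-grown quadruple mutant fkd1 fl1-2 fl2 fl3, which the labels call flΔ4 (fl4_dark). CRY2 was at 0 to 0.06 TPM in the 6 cry2-1 libraries and at 72.3 to 110 TPM in the others. Its neighbour c-NAD-MDH1, a malate dehydrogenase gene, was also at 0 to 0.22 TPM in cry2-1 against 470 to 832 TPM elsewhere, so cry2-1 stood for the loss of both transcripts. In fl4_dark, FL1 was at 0.13 to 0.37 TPM against 2.81 to 4.62 TPM in WT_dark 4-6. The labels do not say that replicates came from separate cultures, so p-values measure the spread between these libraries, which may be technical.

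The dark wild-type libraries stood in 2 sets. In the headers of the files, sample names start with Da for WT_dark 1-3, Db for cry2_dark, M for both blue-light groups and D for WT_dark 4-6 and fl4_dark, and no label explains these letters. Each blue-light group therefore shares its letter with no dark group, and light cannot be told apart from this library series. The cry2_dark libraries share their letter with no dark wild-type set, so in darkness cry2-1 cannot be told apart from the series either. The same holds for the interaction of light and cry2-1. In WT_dark 1-3 the summed TPM was 41040 to 48180 for 4 ribosomal RNA loci and 34290 to 36382 for organelle loci. In the other sets it was 6550 to 31348 and 2076 to 9906. Results that rest on the dark wild type are given against both sets.

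Expansins are secreted proteins that loosen the plant cell wall as it extends, without cutting its polymers, and they work best at the acid wall pH that plasma-membrane proton pumps produce. They are thought to act where cellulose microfibrils and xyloglucan meet. Alpha- and beta-expansins have wall-loosening activity, while the activity of the expansin-like proteins has not been shown. In darkness the hypocotyl of a seedling elongates rapidly, and blue light slows it through cryptochromes and phototropins.

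Alpha-expansins made up most of the family's transcripts in every group, between 81.9% of the summed mean TPM in fl4_dark and 89.6% in cry2_dark. The 5 highest members together held 54.8% to 64.1%. In WT_dark 1-3 the order was led by EXPA3 (AT2G37640) at 186 ± 4.49 TPM (SD, n = 3) and EXPA4 (AT2G39700) at 158 ± 13.0 TPM. EXPA11 (AT1G20190) at 131 ± 4.63 TPM and EXPA9 (AT5G02260) at 130 ± 5.05 TPM followed and lay within each other's spread. The blue-light wild type had another order, led by EXPA1 (AT1G69530) at 48.1 ± 12.9 TPM, with EXPA9, EXPA3, EXPA4 and EXPA6 next at means of 38.6 to 44.5 TPM, all within the spread of EXPA1. The lowest described members were EXPA7, EXPA12, EXPA17, EXPA18 and EXLA3, none of which passed 4 TPM in any library.

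The family's summed level followed the library sets as well as the groups. The summed TPM of all 30 loci was 1059 to 1120 in WT_dark 1-3, 542 to 799 in WT_dark 4-6, 1339 to 1393 in cry2_dark, 339 to 494 in fl4_dark, 308 to 388 in WT_blue and 453 to 554 in cry2_blue. The cry2_dark libraries were highest and did not overlap with any other set, and neither did the sets of dark wild type with each other. The range of fl4_dark overlapped those of WT_blue and cry2_blue.

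**Figure D1:**
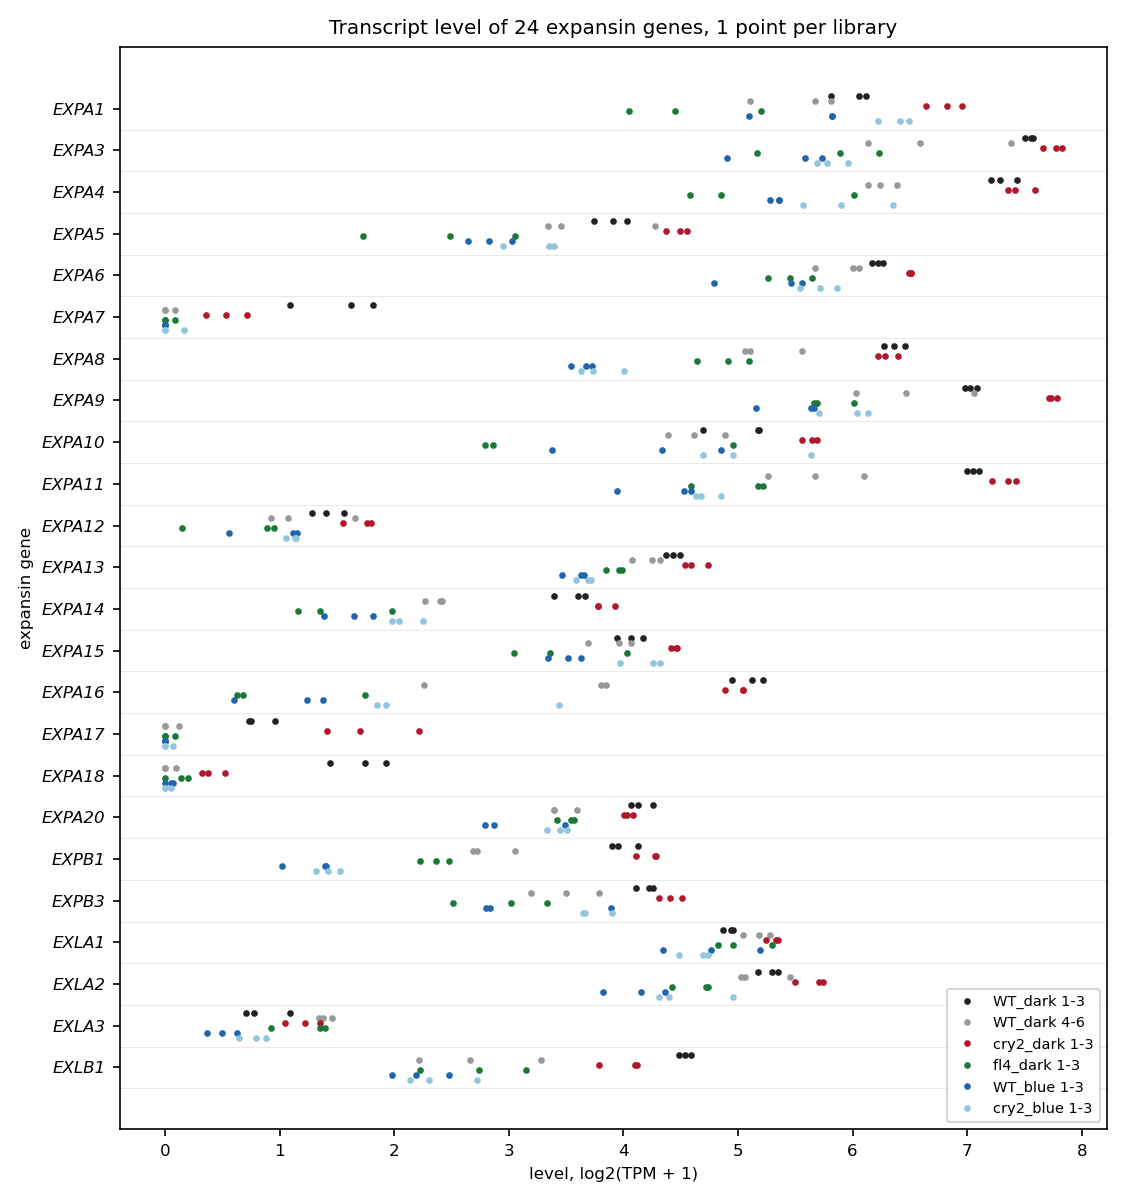
Transcript level of the 24 described expansin genes on the log2(TPM + 1) scale, 1 point per library, with the 6 sets of libraries in separate colours. The blue-light libraries lie to the left of WT_dark 1-3 for most genes, while EXLA1 stays between 19.3 and 39.7 TPM in every library.

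Expansins differed between the dark wild-type sets, although both carry the same genotype and light labels. EXPA16 (AT3G55500) was at 33.8, 36.2 and 29.9 TPM in WT_dark 1-3 and at 3.79, 12.9 and 13.4 TPM in WT_dark 4-6. EXLB1 (AT4G17030) was at 23.1, 21.4 and 22.3 TPM in the first set and at 8.74, 3.64 and 5.33 TPM in the second. Neither gene overlapped between the sets, and 13 of 22 expansins, EXPA18 among them, lay lower in WT_dark 4-6 without overlap, beside 26.6% of all genes tested. In limma's test over all 19703 genes, 10 of 22 expansins tested were lower in WT_dark 4-6 (EXPA4, EXPA8, EXPA11, EXPA14, EXPA16, EXPA18, EXPA20, EXPB1, EXPB3 and EXLB1) and 1 was higher (EXLA3), against 21.1% lower and 29.8% higher among all genes tested. EXPA18 passed the filter on low values only through WT_dark 1-3 and EXLA3 mainly through WT_dark 4-6, so their directions rest on that filter, and 9 of the 20 others were lower. The expansin median over the 22, with EXPA18 and EXLA3 included, was -0.60 on the log2(TPM + 1) scale, against 0.08 for all genes. EXLA3 lost its call when the libraries were rescaled without ribosomal and organelle loci (adjusted p = 0.0569), and 16 expansins were then lower, beside 25.9% of all genes. The 16 include EXPA18 and also EXPA7, which likewise passed the filter only through WT_dark 1-3. Without single libraries the count of calls ran from 8 to 14, a range that is not set against all genes. Without WT_dark 4, WT_dark 5 or WT_dark 6 the count takes in EXPA7, which again passed the filter only through WT_dark 1-3. EXPA16 lost its call without WT_dark 1 or WT_dark 2 (adjusted p = 0.0668 and 0.0709) and EXLA3 without any library but WT_dark 2 (adjusted p = 0.0702 to 0.127).

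Most tested expansins were lower in the blue-light libraries than in the dark ones in both genotypes, with light not separable from the library series. In wild type, 17 of 20 tested expansins were lower than in WT_dark 1-3 and none was higher, where 32.9% of all genes tested were lower. Against WT_dark 4-6, 14 of 21 were lower and none was higher, beside 20.1% of all genes. The 14, and the median given below for this comparison, include EXLA3. That gene passed the filter on low values through its dark levels, so its call is no support. In cry2-1, again 17 of 20 were lower and none was higher, beside 30.2%. The median change was -1.13, -0.75 and -1.17 on the log2 scale in the 3 comparisons, against -0.04, -0.17 and -0.05 over all genes tested. In bulk seedlings, fewer cells that express a gene and less of its RNA per cell cannot be told apart.

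Among the alpha-expansins, EXPA16 showed the largest change in both wild-type comparisons. Its level fell from the dark values given above to 1.36, 1.60 and 0.52 TPM in WT_blue. In cry2-1 it was at 32.0, 32.0 and 28.5 TPM in darkness and 2.61, 9.84 and 2.81 TPM in blue light. The blue-light values lay below all dark values of the same genotype. The log2 change was -4.02 ± 0.36 (SE; adjusted p = 3.52e-06, limma) against WT_dark 1-3, -2.23 ± 0.49 (adjusted p = 0.00788) against WT_dark 4-6, and -2.59 ± 0.36 (adjusted p = 0.000125) in cry2-1.

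EXPA8 (AT2G40610) and EXPA11 also changed strongly in both genotypes. EXPA8 was at 81.4, 87.0 and 76.5 TPM in WT_dark 1-3 and 32.5, 46.1 and 33.5 TPM in WT_dark 4-6, against 12.2, 10.6 and 11.8 TPM in WT_blue. In cry2-1 it went from 73.5, 76.9 and 83.2 TPM to 15.1, 12.3 and 11.4 TPM. Every blue-light library was under every dark one. The log2 changes of EXPA8 were -2.72 ± 0.11 (adjusted p = 1.33e-09), -1.60 ± 0.14 (adjusted p = 1.68e-05) and -2.51 ± 0.11 (adjusted p = 3.55e-09). EXPA11 was at 131, 127 and 136 TPM in the first dark set and 37.5, 67.7 and 49.9 TPM in the second, then at 22.0, 23.1 and 14.4 TPM after light, with log2 changes of -2.70 ± 0.14 and -1.33 ± 0.20. In cry2-1 it changed from 171, 148 and 162 TPM to 27.9, 23.8 and 24.7 TPM, by -2.61 ± 0.14. All 3 changes of EXPA11 passed the test (adjusted p = 1.41e-08, 0.000808 and 2.46e-08).

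The abundant members EXPA3, EXPA4 and EXPA9 fell by less than EXPA16, EXPA8 and EXPA11 on the log2 scale. EXPA3 was at 187, 189 and 181 TPM in WT_dark 1-3, at 69.3, 166 and 95.3 TPM in WT_dark 4-6 and at 46.9, 52.3 and 28.9 TPM in WT_blue. EXPA4 was at 155, 172 and 147 TPM, at 74.7, 69.4 and 82.8 TPM and at 40.0, 37.8 and 39.9 TPM in the same sets. EXPA9 was at 125, 129 and 135 TPM, at 64.4, 132 and 87.3 TPM and at 48.9, 49.7 and 34.7 TPM. None of these genes overlapped between blue light and either dark set, although WT_dark 4-6 varied widely for EXPA3 and EXPA9. Against WT_dark 1-3 the log2 changes were -2.14 ± 0.17 for EXPA3, -1.98 ± 0.16 for EXPA4 and -1.54 ± 0.14 for EXPA9. Against WT_dark 4-6 they were -1.29 ± 0.28, -0.93 ± 0.16 and -1.03 ± 0.23. In cry2-1 they were -1.95 ± 0.17, -1.52 ± 0.16 and -1.78 ± 0.14, and all 9 values passed the test.

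EXPA14 (AT5G56320), a target of the lateral-root regulator LBD18, fell by 1.94 ± 0.14 on the log2 scale against the first dark set, by 0.75 ± 0.14 against the second and by 1.74 ± 0.14 in cry2-1. Its levels were 9.51 to 11.7, 3.82 to 4.33 and 1.61 to 2.52 TPM in WT_dark 1-3, WT_dark 4-6 and WT_blue. EXPA5 (AT3G29030), EXPA6 (AT2G28950) and EXPA13 (AT3G03220) were lower in all 3 comparisons, by 0.63 to 1.24 on the log2 scale. EXPA15 (AT2G03090) was lower in both wild-type comparisons (-0.57 ± 0.12 and -0.41 ± 0.13), but in cry2-1 its change of -0.27 ± 0.12 did not pass (adjusted p = 0.0722). EXPA20 (AT4G38210) was lower against WT_dark 1-3 (-1.10 ± 0.16) and in cry2-1 (-0.61 ± 0.16), and its change of -0.41 ± 0.16 against WT_dark 4-6 did not pass (adjusted p = 0.0776). The EXPA20 locus overlaps a long noncoding RNA, AT4G38215, on the other strand over 1061 bases in the TAIR10.1 annotation. The sources used here do not say whether reads were counted by strand, so its level is uncertain. EXPA12, at 0.47 to 2.48 TPM in these 12 libraries, was called against WT_dark 1-3 (-0.47 ± 0.19, adjusted p = 0.0404) and lost that call without WT_dark 1, WT_dark 3, cry2_dark 3, WT_blue 1 or cry2_blue 1 (adjusted p = 0.0514 to 0.189). Against WT_dark 4-6 its change of -0.28 ± 0.22 did not pass (adjusted p = 0.361), nor did it against WT_dark 1-3 with rescaling by median ratios (adjusted p = 0.0549). Its call in cry2-1 (-0.59 ± 0.19) was lost without cry2_dark 3 (adjusted p = 0.0506).

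EXPA1 and EXPA10 did not pass in any of the 3 light comparisons as fitted here. EXPA1, known for a part in stomatal opening and in lateral root initiation, was at 68.6, 65.4 and 55.0 TPM in WT_dark 1-3, at 33.3, 50.0 and 55.4 TPM in WT_dark 4-6 and at 55.4, 55.6 and 33.2 TPM in WT_blue. EXPA10 (AT1G26770), which promotes leaf growth, was at 35.1, 35.3 and 24.9 TPM, at 19.9, 23.5 and 28.6 TPM and at 19.3, 27.9 and 9.39 TPM. The blue-light and dark wild-type libraries overlapped for both genes. EXPA1 lay close to the threshold against WT_dark 1-3 and in cry2-1 (adjusted p = 0.0563 and 0.0526). With ribosomal and organelle loci left out it was lower in both (-0.51 and -0.44), and EXPA10 was lower against WT_dark 1-3 (-0.92). Leaving out WT_dark 3, WT_blue 1 or WT_blue 2 brought EXPA1 under the threshold in wild type (adjusted p = 0.0273 to 0.0455), as leaving out WT_blue 2 or cry2_blue 2 did for EXPA10 (adjusted p = 0.0106 and 0.0428). In cry2-1 EXPA1 was called without any 1 WT_blue library (adjusted p = 0.00352 to 0.0464), through the shared spread.

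Both described beta-expansins fell. EXPB1 (AT2G20750) was at 16.5, 14.5 and 13.9 TPM in WT_dark 1-3, at 5.60, 7.32 and 5.45 TPM in WT_dark 4-6 and at 1.64, 1.65 and 1.03 TPM in WT_blue. In cry2-1 it went from 16.3, 18.4 and 18.5 TPM to 1.68, 1.89 and 1.50 TPM. No blue-light library reached a dark one. Its log2 changes were -2.72 ± 0.14 (adjusted p = 9.55e-09), -1.55 ± 0.15 (adjusted p = 3.48e-05) and -2.80 ± 0.14 (adjusted p = 1.03e-08). EXPB3 (AT4G28250) was at 16.2 to 18.1, 8.15 to 12.8 and 5.98 to 13.9 TPM in the wild-type sets. It fell by 1.02 ± 0.23 against the first dark set and by 0.67 ± 0.23 in cry2-1, where the call was lost without cry2_dark 2, cry2_dark 3, cry2_blue 2 or cry2_blue 3 (adjusted p = 0.0574 to 0.0759). Against the second dark set its change was -0.32 ± 0.25 (adjusted p = 0.362).

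The expansin-like genes differed in how far they changed. EXLB1 fell to 3.57, 2.94 and 4.57 TPM in WT_blue, a log2 change of -2.32 ± 0.17 (adjusted p = 1.78e-07) against WT_dark 1-3. Its difference from WT_dark 4-6 was -0.50 ± 0.25 and did not pass (adjusted p = 0.147). In cry2-1 EXLB1 went from 12.8, 16.3 and 16.1 TPM to 5.60, 3.41 and 3.94 TPM, by -1.61 ± 0.17 (adjusted p = 5.62e-06). EXLA2 (AT4G38400), whose loss is known to raise resistance to the grey mould fungus Botrytis, fell by about the same amount in the 3 comparisons (-1.16 ± 0.17, -1.06 ± 0.19 and -1.09 ± 0.17). EXLA1 (AT3G45970) was at 30.0, 28.2 and 29.8 TPM in WT_dark 1-3, at 37.8, 35.4 and 32.0 TPM in WT_dark 4-6 and at 26.2, 19.3 and 35.5 TPM in WT_blue. These EXLA1 ranges overlapped and neither wild-type comparison passed, while in cry2-1 it fell from 39.4, 37.0 and 39.7 TPM to 25.0, 21.4 and 25.6 TPM (-0.67 ± 0.16, adjusted p = 0.00373). Without WT_blue 3, the highest of its blue-light values, EXLA1 was called lower against WT_dark 1-3 (-0.37, adjusted p = 0.0195). EXLA3 (AT3G45960) was at 0.63, 1.13 and 0.71 TPM in WT_dark 1-3, at 1.74, 1.54 and 1.60 TPM in WT_dark 4-6 and at 0.29, 0.41 and 0.55 TPM in WT_blue. It was tested only against WT_dark 4-6, where it was lower (-0.89 ± 0.17, adjusted p = 0.00253) but passed the filter on low values through its dark levels, so the call is no support. With no filter on low values it was also lower against WT_dark 1-3 (-0.36) and in cry2-1 (-0.44).

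Without overlap between the groups, 17 of 20 expansins lay lower in WT_blue than in WT_dark 1-3, beside 36.1% of all genes tested. The count was 14 of 21 against WT_dark 4-6, beside 31.7%, and 19 of 20 in cry2-1, beside 34.6%. The 14 again include EXLA3, which passed the filter through its dark levels. When WT_dark 4-6 was used with rescaling by median ratios, 11 of 20 tested were called lower and none higher, beside 8.93% of all genes.

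**Figure D2:**
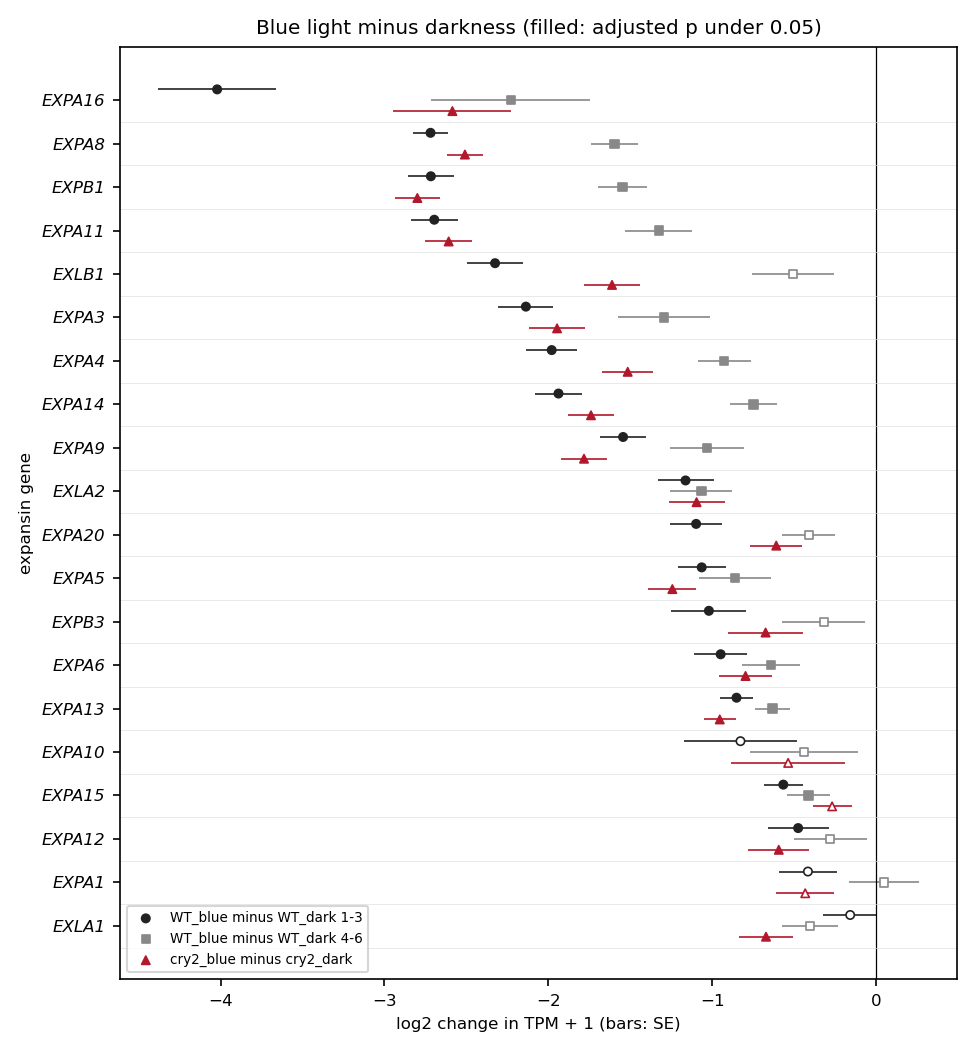
Change of 20 expansin genes after blue light, as log2(TPM + 1) in blue light minus darkness with SE bars, in wild type against each dark set and in cry2-1. Filled symbols have an adjusted p under 0.05 and all of them lie below 0, while the grey squares, taken against WT_dark 4-6, lie nearer to 0 than the black circles for every gene except EXLA1.

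The partners of expansins in wall extension were followed as lists chosen by function. Of 8 tested plasma-membrane proton pump genes, 4 were lower and 2 were higher in WT_blue against WT_dark 1-3, where 32.9% of all genes tested were lower and 28.7% higher. AHA2, one of the main pumps, fell by 2.06 ± 0.10 on the log2 scale and AHA1 by 0.90 ± 0.09, while AHA4 rose by 1.27 ± 0.15. Of 8 genes for xyloglucan assembly and trimming, 7 were lower, led by the glucan synthase gene CSLC4 (-2.68 ± 0.13), the xylosidase gene XYL1 (-1.12 ± 0.10) and the xylosyltransferase gene XXT5 (-0.92 ± 0.10). Of 14 XTH genes, whose enzymes cut and rejoin xyloglucan, 9 were lower and 2 were higher, with XTH4 at -1.63 ± 0.11 and XTH15 at -2.69 ± 0.19. In cry2-1 the counts were 2 lower and 4 higher pumps, 8 lower assembly genes and 10 lower XTH genes, beside 30.2% lower and 25.8% higher among all genes. Against WT_dark 4-6 they were 3 lower pumps, 5 lower assembly genes, and 5 lower and 1 higher XTH genes, beside 20.1% lower and 9.08% higher.

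Root markers did not all change alike between blue light and darkness, and their counts depended on the dark set. Of 8 tested root genes, 5 were lower and 1 was higher in WT_blue against WT_dark 1-3, beside 32.9% and 28.7% of all genes. Against WT_dark 4-6, 1 of 8 was lower, beside 20.1%, and in cry2-1, 5 were lower and none was higher, beside 30.2%. The endodermal genes CASP1 and CASP2 changed by -2.34 and -2.35 against WT_dark 1-3, and the phosphate transporter gene PHT1;1 by -2.37. In the same comparison TIP2;3 rose by 0.86, while PYK10 (0.16) and WOX5 (-0.01) were not called. The summed TPM of all 10 root genes was 5551 to 5770 in WT_dark 1-3, 4497 to 8019 in WT_dark 4-6, 6117 to 7095 in cry2_dark, 5147 to 7775 in fl4_dark, 5227 to 8636 in WT_blue and 4387 to 5607 in cry2_blue. The sums of the wild-type sets overlapped, those of cry2_dark and cry2_blue did not, and none of the 10 genes was at 0 in all libraries of a set. Most of each sum came from PYK10, at 3772 to 7280 TPM over the 18 libraries, so the sums do not follow CASP1, CASP2 or PHT1;1. The part of root share in the expansin changes was not tested.

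In darkness, 3 of 20 tested expansins were called between cry2-1 and WT_dark 1-3, all of them higher in cry2-1, where 12.9% of all genes were called in either direction. They were EXPA1, EXPA5, which is known as a growth gene downstream of brassinosteroids, and EXPA9. EXPA1 was at 123, 98.7 and 112 TPM in cry2_dark, above all 6 dark wild-type libraries. EXPA9 was at 209, 211 and 219 TPM and EXPA5 at 19.7, 22.6 and 21.6 TPM, also above every dark wild-type library. The log2 changes were 0.81 ± 0.18 for EXPA1 (adjusted p = 0.0112), 0.71 ± 0.14 for EXPA9 (adjusted p = 0.00651) and 0.58 ± 0.15 for EXPA5 (adjusted p = 0.0226).

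The other members mostly lay slightly higher without passing the test. In all, 13 of 20 had every cry2_dark library above WT_dark 1-3, beside 28.0% of all genes tested, and the median difference was 0.28 against 0.10 for all genes. EXLB1 went the other way at 12.8, 16.3 and 16.1 TPM, below 21.4 to 23.1 TPM in WT_dark 1-3. Its difference was -0.54 ± 0.17 (adjusted p = 0.0535), and it was called lower when ribosomal and organelle loci were left out (-0.63) or with rescaling by median ratios (-0.64). The first rescaling gave 2 higher and 1 lower expansin, beside 5.46% and 4.17% of all genes, and the second gave 3 higher and 1 lower, beside 5.41% and 5.44%.

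The cry2-1 difference in darkness depended on the dark wild type it was set against, and neither dark set shares the header letter of cry2_dark. Against WT_dark 4-6, 17 of 21 expansins were higher in cry2_dark and none was lower, beside 20.5% of all genes called higher. EXPA14 (1.47 ± 0.14), EXPB1 (1.40 ± 0.15) and EXPA11 (1.65 ± 0.20) had the smallest adjusted p in that comparison, and their changes against WT_dark 1-3 were 0.28 ± 0.14, 0.23 ± 0.14 and 0.28 ± 0.14, none of which passed. EXLB1 changed sign, at 1.28 ± 0.25 (adjusted p = 0.00176). Against all 6 dark libraries EXPA1 and EXPA9 were called, beside 1.51% of all genes. The call of EXPA5 was lost without WT_dark 2, WT_dark 3, cry2_dark 2 or cry2_dark 3 (adjusted p = 0.0542 to 0.101) and that of EXPA1 without cry2_dark 1 (adjusted p = 0.0513). Without WT_blue 3, which enters only through the shared spread, 7 expansins were higher and 1 was lower, beside 15.5% and 4.74% of all genes, and without WT_blue 2 they were 5 and 1, beside 12.9% called in either direction.

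In blue light, 2 of 20 expansins were higher in cry2-1 than in wild type and none was lower, beside 2.61% of all genes called higher. EXPA15 was at 19.0, 18.1 and 14.7 TPM in cry2_blue and at 10.4, 9.12 and 11.4 TPM in WT_blue. EXPA1 was at 73.7, 88.8 and 84.5 TPM in cry2_blue, above its WT_blue values of 33.2 to 55.6 TPM. Neither gene overlapped between the genotypes. The log2 changes were 0.68 ± 0.12 (adjusted p = 0.0108) for EXPA15 and 0.80 ± 0.18 (adjusted p = 0.0307) for EXPA1.

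Of the 20 expansins, 7 lay higher in cry2_blue than in WT_blue without overlap, beside 18.9% of all genes tested. The median difference was 0.42, against 0.11 for all genes. EXPA16 had the largest difference of the 20, at 2.61, 9.84 and 2.81 TPM against 0.52 to 1.60 TPM, and did not pass (1.33 ± 0.36, adjusted p = 0.0692). EXPA1 lost its call without cry2_dark 3, cry2_blue 2 or cry2_blue 3 (adjusted p = 0.0515 to 0.116) and with rescaling by median ratios (adjusted p = 0.0596). EXPA16 was called without cry2_blue 1 (adjusted p = 0.0487), EXPA4 and EXPA9 were called without cry2_blue 3 (adjusted p = 0.0104 and 0.0349), and 4 expansins were called without WT_blue 3 (EXPA1, EXPA15, EXPA20 and EXPB3), beside 2.78% of all genes.

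Whether the difference between blue light and darkness was another in cry2-1 than in wild type was tested as an interaction, which the library series also enters. No expansin passed of 20 tested, beside 2.81% of all genes in either direction. The largest interaction values were those of EXPA16 (1.44 ± 0.51, adjusted p = 0.156) and EXLB1 (0.71 ± 0.24, adjusted p = 0.127), both with a smaller fall in cry2-1. Without WT_blue 3, EXPA20, EXPB3 and EXLB1 were called in that direction, beside 2.65% of all genes. With WT_dark 4-6 as the dark wild type, 5 expansins were called with a larger fall in cry2-1, beside 7.89% of all genes: EXPA8 (-0.91 ± 0.20), EXPA11 (-1.28 ± 0.29), EXPA14 (-0.99 ± 0.20), EXPB1 (-1.25 ± 0.22) and EXLB1 (-1.11 ± 0.35). EXLB1 thus had opposite signs with the different dark sets.

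Of the partner lists, 5 of 14 XTH genes were higher in cry2_dark than in WT_dark 1-3 and none was lower, beside 12.9% of all genes called in either direction. XTH31 (0.68 ± 0.12), XTH5 (0.76 ± 0.14), XTH18 (0.76 ± 0.15) and XTH20 (0.93 ± 0.21) had the smallest adjusted p. Against WT_dark 4-6, 7 XTH genes and 7 of 8 xyloglucan assembly genes were higher and none was lower, while 2 pumps were higher and 4 lower, beside 20.5% higher and 20.2% lower among all genes. Against WT_dark 1-3 no proton pump and no xyloglucan assembly gene was called, and MUR3 came nearest (adjusted p = 0.0561, limma). In blue light none of the 3 lists had a called gene, beside 3.34% of all genes called in either direction. The pump gene AHA3 came nearest there (adjusted p = 0.0612, limma).

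**Figure D3:**
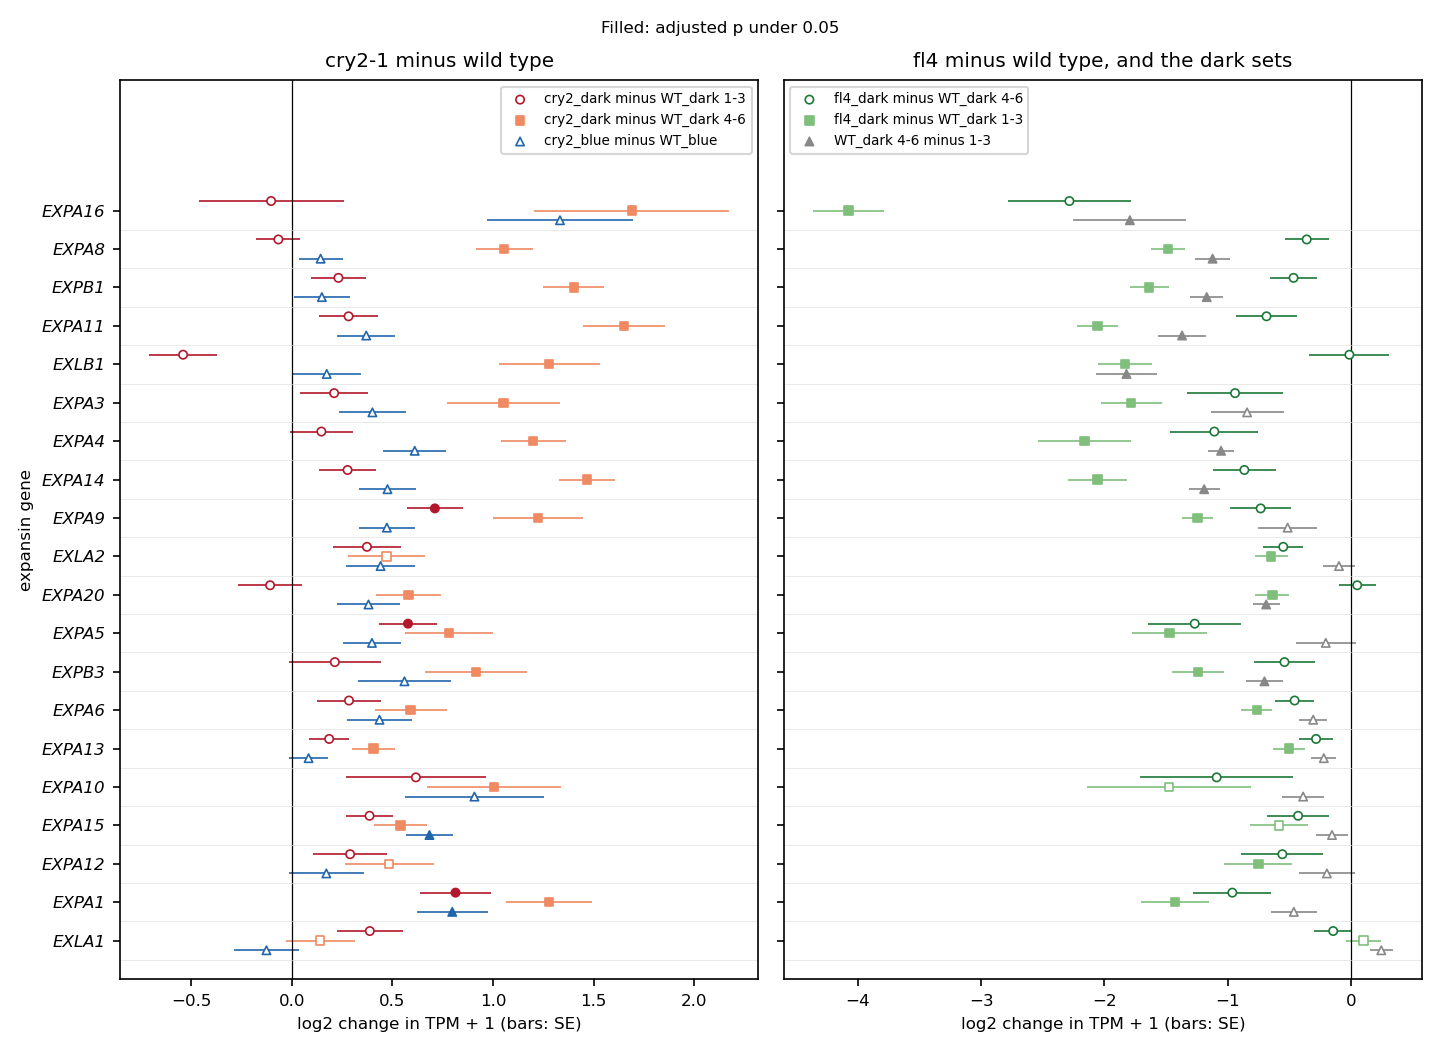
Difference of 20 expansin genes between mutant and wild type as log2(TPM + 1) with SE bars, with cry2-1 on the left and fl4 and the dark wild-type sets on the right; filled symbols have an adjusted p under 0.05. On the left the cry2_dark values against WT_dark 4-6 lie to the right of those against WT_dark 1-3 for every gene except EXLA1, and on the right none of the green circles (fl4_dark against WT_dark 4-6) is filled.

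FKD1 and its relatives are known for a part in the patterning of leaf veins. In the fkd1 fl1-2 fl2 fl3 mutant most expansins lay lower than in WT_dark 4-6 but none passed the test. Of 21 expansins tested, 0 were called in limma's test, beside 0.0824% of all genes called lower. The median was -0.55 on the log2 scale, against -0.12 for all genes. The 21 behind this median include EXPA12, which averaged 0.63 TPM in fl4_dark and 1.39 TPM in WT_dark 4-6. It passed the filter on low values only through WT_dark 4-6, so its direction is no support. In 10 of the 21 every fl4_dark library lay below every WT_dark 4-6 library, beside 15.5% of all genes tested.

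EXPA16 stood lowest relative to wild type, at 0.55, 0.60 and 2.35 TPM in fl4_dark against 3.79, 12.9 and 13.4 TPM in WT_dark 4-6. Its difference was -2.28 ± 0.50 (adjusted p = 0.0991). EXPA5 was at 2.32, 4.62 and 7.33 TPM against 9.16, 18.4 and 9.98 TPM (-1.27 ± 0.38, adjusted p = 0.141). EXPA14 was at 1.23, 1.55 and 2.96 TPM against 4.29, 3.82 and 4.33 TPM (-0.86 ± 0.26, adjusted p = 0.133). None of these 3 genes overlapped between the groups, and for each fl4_dark 3 was the mutant library nearest to wild type.

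The count depended on fl4_dark 3, which was not the mutant library furthest from wild type in ribosomal RNA. That sum was 31348, 15784 and 11755 TPM in fl4_dark 1, 2 and 3, against 6550 to 7907 TPM in WT_dark 4-6. Genes at 1 TPM or more numbered 18844, 18493 and 19436 in fl4_dark, against 19125 to 19352. For EXPA10, fl4_dark 3 stood at 30.1 TPM where the other mutant libraries had 6.29 and 5.95 TPM and WT_dark 4-6 had 19.9 to 28.6 TPM. For EXPA4 it stood at 63.5 TPM beside 27.9 and 23.0 TPM. Without fl4_dark 3, 7 expansins were lower (EXPA1, EXPA4, EXPA5, EXPA10, EXPA14, EXPA15 and EXPA16), beside 11.7% of all genes, with changes from -0.71 for EXPA15 to -2.65 for EXPA16. Without WT_dark 4, EXPA16 was called (-2.80), beside 0.857% of all genes.

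Against WT_dark 1-3, 18 of 22 expansins were lower in fl4_dark and none was higher, beside 25.4% of all genes called lower. The 18 include EXPA12 and EXPA18, which passed the filter on low values only through WT_dark 1-3, so their calls are no support. The largest changes were those of EXPA16 (-4.08 ± 0.29), EXPA4 (-2.16 ± 0.38), EXPA14 (-2.06 ± 0.24) and EXPA11 (-2.05 ± 0.17). All 4 genes were also lower in WT_dark 4-6 than in WT_dark 1-3, where the changes were -1.79, -1.05, -1.19 and -1.37 in the same order. Against all 6 dark libraries EXPA16 alone was called (-3.18, adjusted p = 0.0471), beside 0.660% of all genes. No gene of the proton pump, xyloglucan assembly or XTH lists was called against WT_dark 4-6, beside 0.304% of all genes called in either direction.

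EXPA7 (AT1G12560) and EXPA18 (AT1G62980) are the expansins of root hairs, the tubular outgrowths of root epidermal cells, and EXPA17 (AT4G01630) acts in lateral root formation. The promoters of EXPA7 and EXPA18 are shown because these were the only described expansins whose promoters held a match to the root hair element. Each window is the 250 bases before the annotated gene start on the gene's strand, read from the TAIR10.1 assembly of RefSeq, at chr1:4276255-4276504 for EXPA7 and chr1:23331313-23331562 for EXPA18, both on the plus strand. Capitals mark the match to the consensus of the root hair element, 78 to 62 bases before the start in EXPA7 and 40 to 25 bases before it in EXPA18.
EXPA7: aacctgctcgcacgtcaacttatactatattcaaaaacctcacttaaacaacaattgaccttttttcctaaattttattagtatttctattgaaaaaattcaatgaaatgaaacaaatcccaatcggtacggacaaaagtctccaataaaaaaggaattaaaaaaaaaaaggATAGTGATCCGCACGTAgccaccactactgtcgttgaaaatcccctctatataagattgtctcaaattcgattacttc
EXPA18: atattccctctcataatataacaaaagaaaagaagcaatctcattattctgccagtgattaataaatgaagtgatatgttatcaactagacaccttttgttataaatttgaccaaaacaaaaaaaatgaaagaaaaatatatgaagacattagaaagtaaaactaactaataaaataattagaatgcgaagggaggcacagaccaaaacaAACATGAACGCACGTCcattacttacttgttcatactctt
The element was searched on both strands by its consensus, which was defined in part on EXPA7 itself, so the match is a description and no test. It was found in these 2 of 24 described expansins, in 3 of 10 root-hair marker genes (LRX1, PRP1 and PRP3) and in 207 of 27443 promoters of the same length (0.754%).

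The root-hair expansins were detected mainly in WT_dark 1-3 and cry2_dark. EXPA7 was at 2.09, 2.51 and 1.13 TPM in WT_dark 1-3 and at 0.45, 0.28 and 0.64 TPM in cry2_dark. EXPA18 was at 2.81, 1.72 and 2.36 TPM and at 0.44, 0.30 and 0.25 TPM in the same groups. In the other 12 libraries EXPA7 was at no more than 0.12 TPM and EXPA18 at no more than 0.15 TPM. Both genes reached 1 TPM in WT_dark 1-3 alone, which is also why they are among the described members. EXPA17 had another pattern, at 0.95, 0.66 and 0.68 TPM in WT_dark 1-3, 3.64, 1.66 and 2.25 TPM in cry2_dark and at most 0.09 TPM elsewhere.

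EXPA7, EXPA17 and EXPA18 lay under the mean of 1 TPM needed for the test of light and cry2-1, and are given as levels only. In WT_dark 4-6 they were at no more than 0.09 TPM and overlapped WT_blue, so wild-type levels were lower in light against WT_dark 1-3 and not against WT_dark 4-6. No ratio is given because several libraries were listed at 0 and the read depth is unknown. The EXPA7 and EXPA18 loci overlap genes on the other strand by 23 and 46 bases, as EXLA1 does by 22.

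Root-hair marker genes were also highest in WT_dark 1-3 when summed. The summed TPM of 10 such genes was 15.3 to 20.6 in WT_dark 1-3, 1.72 to 3.27 in WT_dark 4-6, 7.36 to 9.50 in cry2_dark, 0.81 to 2.79 in fl4_dark, 1.17 to 1.38 in WT_blue and 1.10 to 2.28 in cry2_blue. PRP3, a root-hair wall protein gene, was at 4.43, 6.52 and 8.50 TPM in WT_dark 1-3, at 1.37, 0.56 and 1.44 TPM in cry2_dark, and did not pass 0.27 TPM elsewhere. PRP1 was listed at 0 in all libraries of WT_dark 4-6, fl4_dark, WT_blue and cry2_blue, and COBL9 in all of fl4_dark. The sum rests largely on PRP3, RHS19 and RHD2, and not every gene had its pattern. RHD2, at 3.19 to 3.74 TPM in WT_dark 1-3, was at 2.92 to 4.50 TPM in cry2_dark, and RSL4 overlapped between the dark wild-type sets. The part of root-hair number or root share in these levels was not tested.

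**Figure D4:**
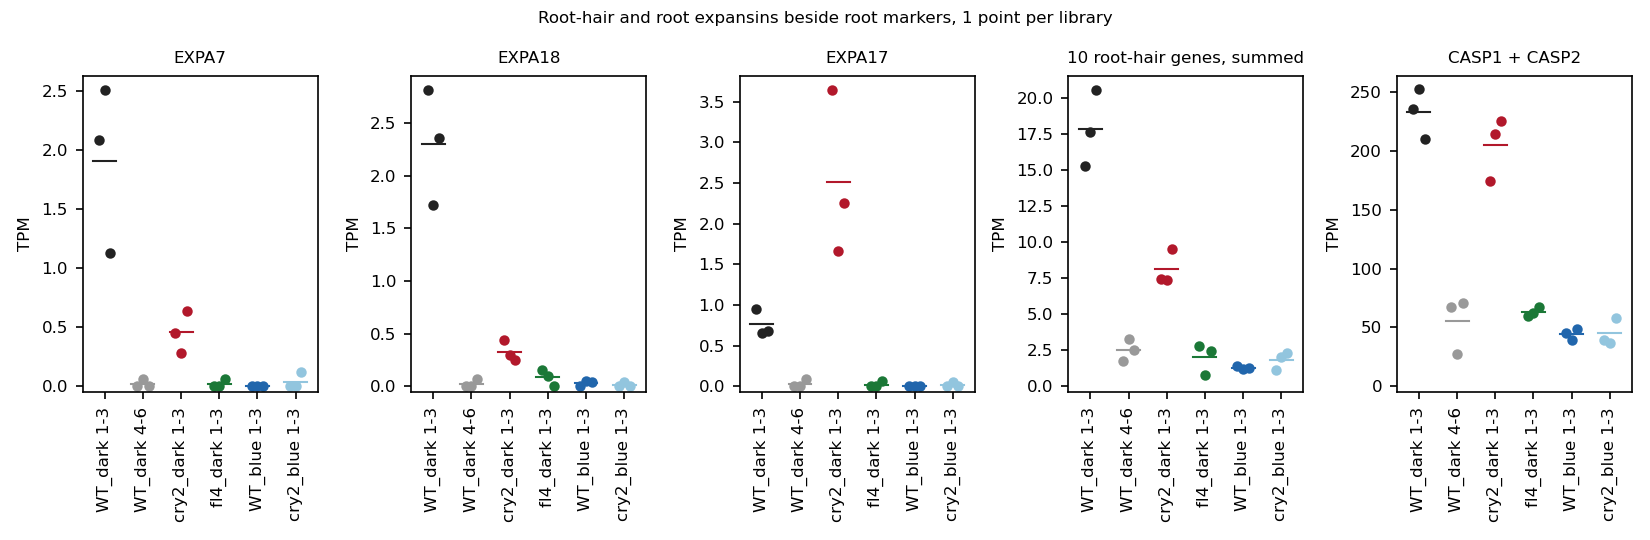
TPM of EXPA7, EXPA18 and EXPA17 beside the summed TPM of 10 root-hair genes and of CASP1 and CASP2, 1 point per library, with a line at the mean of each set of 3. EXPA7, EXPA18 and the root-hair sum are highest in WT_dark 1-3, whereas EXPA17 is highest in cry2_dark at 1.66 to 3.64 TPM.

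Other short words were counted in the same promoter windows. The G-box CACGTG, a word bound by light-signalling factors of the bHLH and bZIP families, was in 0 of the 24 promoters and in 6.49% of all 27443. The auxin response word TGTCTC was in 4 of 24 (16.7%; EXPA5, EXPA6, EXPA7 and EXPA10) and in 10.9% of all. Both were searched on both strands.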

How the data were processed

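Total RNA was taken from whole seedlings with TRIzol and made into libraries with a stranded Illumina mRNA kit, per the labels' protocols. Per the submitters' processing notes, fastp, HISAT2, StringTie and the TAIR10 build were used. Tool versions were not given in the sources used here. Each of the 18 deposited tables lists TPM of 32833 loci, computed by the authors. TPM keep no read totals, so the depth is unknown and no counting interval can be given. Error was taken from the spread between replicates. Because TPM are shares, abundant RNAs that change shift every other value.

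Linear models were fitted in limma 3.58.1 (R 4.3.3) to log2(TPM + 1), moderated robustly along the mean-variance trend. Tested genes averaged at least 1 TPM in the fitted libraries, and calls were made at an adjusted p under 0.05 (Benjamini-Hochberg, over every gene tested). The added 1 understates the change of low genes. One fit held WT_dark 1-3, cry2_dark, WT_blue and cry2_blue, another fl4_dark and WT_dark 4-6, and another WT_dark 1-6. The choice of WT_dark 1-3 for cry2-1 and 4-6 for fl4 follows the title numbers. The pipeline was tested on simulated data. The alternatives were another pseudocount, no filter, other scalings, no trend, a replicate block, the other dark set and leaving out each library. All 30 members matched the TAIR10.1 annotation. TAIR10.1 differs in name from the notes' build, so promoters and overlaps were read from it alone.

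The members and all lists were chosen with earlier results of these data known. Every member with at least 1 TPM in any library was described, and of the other lists up to 4 called genes with the smallest adjusted p were named. A few further genes were named after their values were seen: the root and root-hair genes given by level and the members whose calls changed under an alternative.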

Additional observations from a re-analysis of the deposited data

How the results depend on the processing

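No expansin called in a comparison as first fitted changed sign under the alternatives run. EXLB1, not called for cry2-1 in darkness or for the interaction, took opposite calls with different dark sets, scalings or left-out libraries. Light in wild type, called for 17 members, gave 11 when WT_dark 4-6 was combined with rescaling by median ratios. That alternative was chosen after seeing the data, and 8.93% of all genes were lower with it. The cry2-1 difference in darkness, called for 3, gave 6 with no filter, with EXPA17 added as higher and EXPA7 and EXPA18 as lower. Among all genes 7.10% were then higher and 2.24% lower. EXPA7 and EXPA18 reached 1 TPM in WT_dark 1-3 alone and EXPA17 in cry2_dark alone, so these added calls are no support. Against WT_dark 4-6 the cry2-1 difference gave 17, beside 20.5% of all genes higher, and 18 with median ratios added, beside 22.1% higher. The effect of cry2-1 in blue light, called for 2, gave 1 with no filter, 1 with median ratios and 1 with no trend. The shares of all genes called higher were 1.62%, 1.61% and 2.30% in these settings. The interaction, called for 0, gave 1 with no filter (EXPA18), 5 against WT_dark 4-6 and 7 with median ratios added. The first was higher, beside 0.781% of all genes, and the others were lower, beside 7.89% and 11.6%. EXPA18 was at no more than 0.05 TPM in blue light and reached 1 TPM in WT_dark 1-3 alone, so its interaction call is no support. The fl4 effect, called for 0, gave 18 against WT_dark 1-3 and 1 against WT_dark 1-6, beside 25.4% and 0.660% of all genes lower. The 18 include EXPA12 and EXPA18, which passed the filter on low values only through WT_dark 1-3. Leaving out 1 library at a time gave 16 to 19 calls for light in wild type, 15 to 18 for light in cry2-1, 2 to 8 for cry2-1 in darkness, 1 to 4 for cry2-1 in blue light, 0 to 3 for the interaction, 0 to 7 for fl4 and 8 to 14 between the dark sets. These ranges show how stable the counts were and are not set against all genes. Where such a change comes from was not tested, except that no filter adds genes under 1 TPM. The unknown depth limits what can be said of members near 0 TPM.

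Replicate numbers were not taken to pair the libraries, since deviations of same-numbered libraries correlated at -0.06 to 0.23 and 5 of 12 libraries correlated best with their own number. The highest values were between WT_blue and cry2_blue, at 0.23 for number 2 and 0.22 for number 3, with 0.01 for number 1. A replicate block gave 18 calls for light in wild type (EXPA1 and EXPA10 added, EXPA12 lost), beside 32.7% of all genes lower. For light in cry2-1 it gave 18 (EXPA1 added), beside 29.9% lower. For cry2-1 in darkness it gave 3, beside 8.81% higher, and for cry2-1 in blue light 4 (EXPA4 and EXPA16 added), beside 2.32% higher. The interaction gave 0, beside 1.96% in either direction, and fl4 against WT_dark 1-3 gave 17, beside 25.7% lower. The 17 include EXPA18, which passed the filter on low values only through WT_dark 1-3, so its call is no support. WT_dark 4-6 share no number with fl4_dark, so the fl4 comparison itself was not fitted with a block.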
